A study of Homo sapiens with 4 samples.

Results

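The mRNAs examined here encode the proteins that cut, carry, unwind and store other mRNAs: the SR proteins, the hnRNP proteins, subunits of the spliceosomal snRNPs, the RBM proteins, the DEAD and DEAH box helicases and a set of cytoplasmic mRNA-binding proteins. A gene was a member when its symbol began with HNRNP, SRSF, SF3A, SF3B, SNRNP, PRPF, RBM, DDX, DHX, PABPC, PCBP, IGF2BP or YBX, and a site was taken when it lay on a protein-coding member outside introns. The reference holds 192 such genes among 20020 protein-coding genes. Of these 192, 32 carried a PRRC2B site in at least 1 of the 2 deposited lists (16.7%, 95% Wilson interval 12.1 to 22.6), beside 4.22% of all protein-coding genes. The other 160 carried none.

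PRRC2B is an RNA-binding protein that works with the translation initiation machinery. PAR-CLIP-seq was used to map where it touches RNA in HEK293T cells, a human embryonic kidney line. The cells overexpressed FLAG-tagged PRRC2B from a plasmid, either whole (FL) or as the truncated fragment P2 that holds its RNA-binding region (RBD). There were 2 biological replicates of each form, 4 samples in all. All were fed 4-thiouridine (4sU), a uridine analogue that crosslinks to protein, for 16 h and were irradiated at 312 nm. RNase T1, which cuts after G, left RNA fragments of 19 to 35 nt. The tagged protein was made in excess in both groups, so contacts at the cell's own level of PRRC2B were not measured.

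Each deposited list pools the 2 replicates of its form, so no value below has a replicate error and no test between groups was possible. Sites are valued by peak height, which counts the deduplicated reads that overlap at the summit, with no scaling for sequencing depth. The FL list held 894 distinct sites and the RBD list 571. Of these, 706 and 425 lay on exonic mRNA, where median height was 7 in both lists. The number of reads per sample is not given in the sources used here.

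Splicing regulators recognise short sequences in pre-mRNA. SR proteins do so through RNA recognition motifs and carry a tail rich in arginine and serine (the RS domain), which phosphorylation controls. hnRNP proteins coat nascent transcripts and often oppose SR proteins. DEAD and DEAH box helicases drive the rearrangements of the spliceosome and of ribosome assembly, while poly(A)-, poly(C)- and IGF2 mRNA-binding proteins act on the finished mRNA in the cytoplasm. It is the mRNAs that encode these proteins, and not the proteins, that were examined for contact with PRRC2B.

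Sequences are shown for the places that the results turn on, which are those found in both lists and those with a height of 10 or more. They were read from hg38 on the strand of the gene, 5′ to 3′, as DNA letters, and a site that ran past the end of its exon was trimmed to exon bases. Sites with a UTR label or placement in either list were cut to their middle 30 bases. Capitals mark the 15 nt richest in C+T or in G+A among the printed bases that fall in the middle 41 nt of the site, so in runs of 30 bases a richer window of the site can lie outside what is printed. The 5 places found in both lists, as read from the FL list, were at chr1:70244717-70244816 (+, SRSF11), chr4:82429233-82429332 (-, HNRNPDL), chr17:48997506-48997605 (+, IGF2BP1), chr19:41272155-41272254 (+, HNRNPUL1) and chr19:49108285-49108384 (+, SNRNP70).
SRSF11: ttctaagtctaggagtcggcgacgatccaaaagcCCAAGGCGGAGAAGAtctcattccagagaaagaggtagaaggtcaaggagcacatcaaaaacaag
HNRNPDL: ttcGCAGAGGGATCCAAGatcaacgcgagc
IGF2BP1: ggCTCTCCCCGAACTCTcccgcgacctctg
HNRNPUL1: AAGAAAACCGGGGACgggggtactttgagc
SNRNP70: tGGCCAGGACAACGGGctggagggtctggg

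The capitals are mostly purines in 4 of these 5 places and mostly pyrimidines in IGF2BP1. The tall sites of a single list were at chr11:66059810-66059909 (+, SF3B2), chr20:63983135-63983234 (+, PRPF6) and chr5:137754215-137754314 (-, HNRNPA0) in the FL list, and at chr12:120469501-120469600 (-, SRSF9) and chr17:76736322-76736421 (-, SRSF2) in the RBD list.
SF3B2: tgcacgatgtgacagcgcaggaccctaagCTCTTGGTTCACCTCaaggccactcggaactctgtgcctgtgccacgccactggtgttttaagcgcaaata
PRPF6: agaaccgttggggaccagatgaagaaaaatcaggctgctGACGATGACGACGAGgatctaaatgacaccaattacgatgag
HNRNPA0: ctcgccctttagccgGCACCGCTCCCCTTC
SRSF9: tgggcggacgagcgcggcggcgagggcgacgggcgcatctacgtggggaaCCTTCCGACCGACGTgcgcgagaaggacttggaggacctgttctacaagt
SRSF2: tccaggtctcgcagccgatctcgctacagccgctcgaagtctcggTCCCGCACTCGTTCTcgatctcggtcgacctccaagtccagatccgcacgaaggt

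In the FL list 23 member genes carried a site (12.0%, interval 8.12 to 17.3), beside 3.18% of all protein-coding genes. In the RBD list 14 did (7.29%, interval 4.39 to 11.9), beside 1.90%. Both lists held a site of 5 member genes (2.60%, interval 1.12 to 5.95), beside 0.859%. Member genes thus appeared more often than the average protein-coding gene in each list, by shares whose intervals lie above the background. How much of each mRNA the cells contain is not in the files used here, and its part in these shares was not tested. Members with a site had somewhat longer transcripts than members without one, with medians of 3682 nt and 3168 nt. Across all protein-coding genes the same medians were 3301 nt with a site and 2792 nt without, so transcript length moved with the presence of a site in both sets, and its part was not tested.

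The share with a site varied between the classes of protein, on small numbers, and is to be read beside 4.22% of all protein-coding genes. Among the 12 SR protein genes 4 carried a site (33.3%, interval 13.8 to 60.9). Among the 54 helicase genes 4 did (7.41%, interval 2.92 to 17.6). Between them lay the snRNP and splicing factor subunits with 7 of 29, the cytoplasmic mRNA-binding proteins with 4 of 18, the hnRNP proteins with 5 of 27 and the RBM proteins with 8 of 52. The intervals of all 6 classes overlap. The RBM proteins were unevenly divided, with 7 genes in the FL list, 1 in the RBD list and none in both, where the FL list is also the longer. Both the 7 and the 8 of 52 include RBMX and RBM14-RBM4, whose entries may not be sites on their own mRNAs, as described below. This difference between the lists was not tested.

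**Figure D1:**
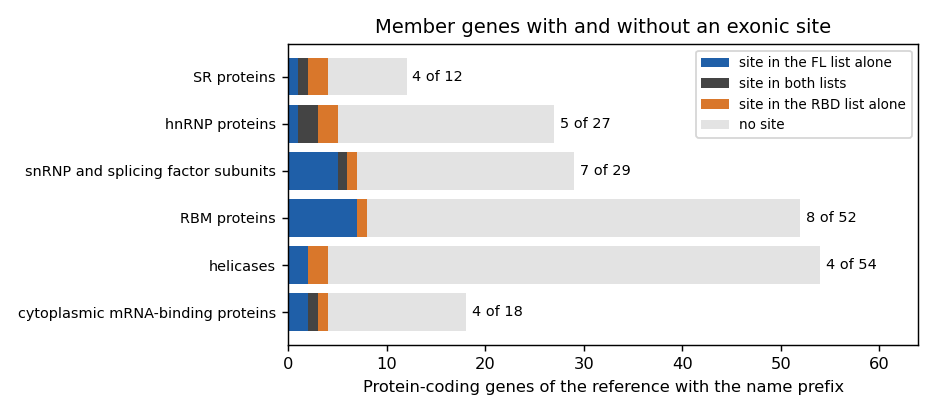
Number of protein-coding genes (horizontal axis) in each class of member, split by whether an exonic site was found in the FL list alone, in both lists, in the RBD list alone or in neither; the text at each bar gives genes with a site of all genes. Most genes of every class carried no site, and the helicases had the lowest share with 4 of 54.

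A list entry under a member's name could not always be taken as a site on that member's mRNA, as 3 entries show. The tallest of all, RBMX at height 30, lay at chrX:136879158-136879257 on the minus strand and carried a CDS label. Its middle base lay in no exon of the longest coding transcript of RBMX, but in an exon of another RBMX transcript and in SNORD61. Of this site, 59 nt matched SNORD61 at 100% identity. SNORD61 is a small nucleolar RNA encoded within RBMX. The capitals in this run mark the SNORD61 bases.
RBMX: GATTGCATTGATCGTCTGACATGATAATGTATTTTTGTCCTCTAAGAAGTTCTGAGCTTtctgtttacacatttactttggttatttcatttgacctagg

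RBMX was the only member site that matched a structural or mitochondrial RNA, 1 of 25 FL sites, beside 29 of all 706 exonic FL sites (4.11%). Reads of SNORD61 and of RBMX RNA that retains this stretch cannot be told apart at this place. Without it, the tallest member site was SF3B2 at 13, and the highest exonic mRNA site of the FL list without such a match stood at 42. The second entry is RBM14-RBM4, a readthrough gene, recorded at the position of the RBM14 site, which lies in an exon of RBM14 and in none of RBM14-RBM4. Both RBMX and RBM14-RBM4 are counted among the 23 FL genes. The third is a DDX46 site of height 4 in the RBD list, labelled 5'UTR, that lay in an exon of C5orf24 and in no exon of DDX46. The 26 FL and 15 RBD entries came to 25 and 15 distinct sites, of which 24 and 14 could be placed on the longest coding transcript of their gene. By the deposited labels, no member entry was an intron site in either list. That label was given to 16.9% of the FL sites and 20.5% of the RBD sites on protein-coding genes.

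Peak heights of members were close to those of the lists they came from. Median height was 8 over the 25 member sites of the FL list and 7 over the 15 of the RBD list, beside 7 over all exonic mRNA sites of each. The middle 50% of member heights ran from 6 to 9 in both lists. Heights of at least 10 were seen at 6 of the 25 FL member sites (24%) and at 2 of the 15 RBD member sites (13.3%), beside 22.0% and 24.9% of all exonic mRNA sites. Members were therefore neither tall nor short for these lists, and counts this low carry wide counting error: a height of 8 has an exact 95% Poisson interval of 3.45 to 15.8.

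**Figure D2:**
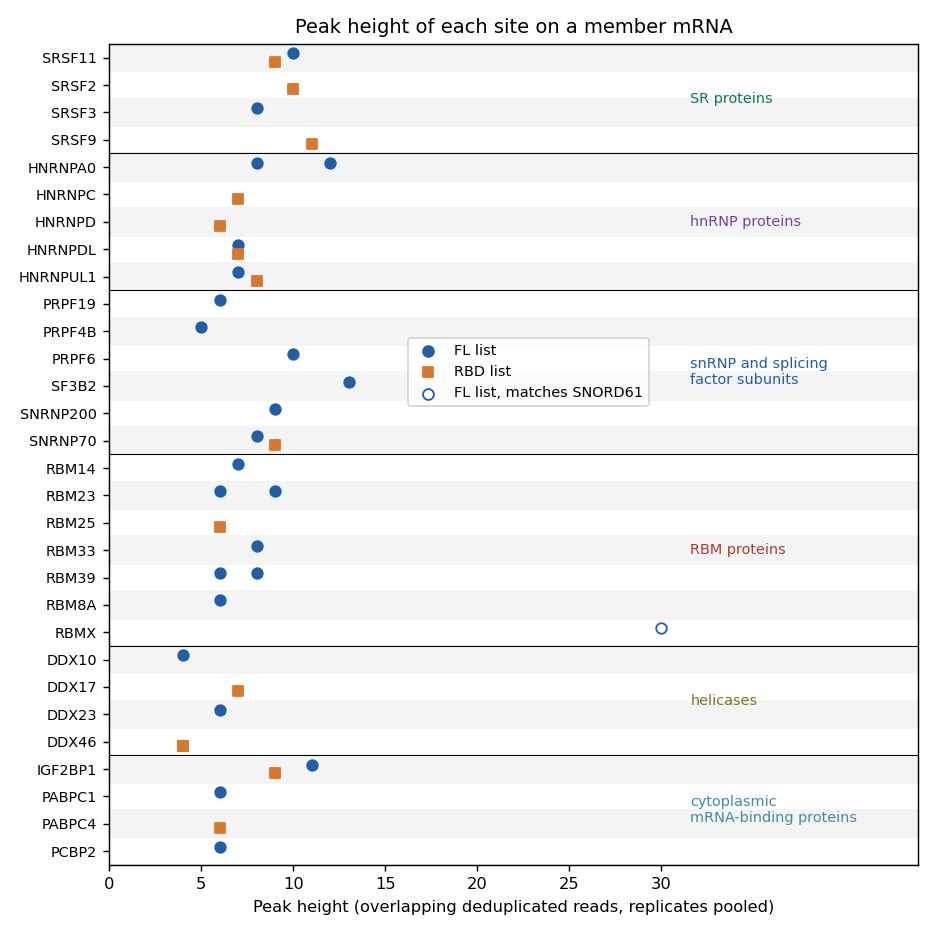
Peak height (horizontal axis, deduplicated reads, replicates pooled) of each member site reported by name, with FL sites as circles and RBD sites as squares, ordered by class of protein. Apart from the open circle, RBMX at its SNORD61 match with 30, no member exceeded 13; the 2 DDX46 sites coincide at 4, and the 5 genes with both symbols have nearly equal heights.

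The first question was whether the RNA-binding fragment finds members at the places that the whole protein does. Of the 25 FL member sites, 5 overlapped an RBD site (20%, interval 8.86 to 39.1), beside 29.6% of all exonic FL sites. Of the 15 RBD member sites, 5 overlapped an FL site (33.3%, interval 15.2 to 58.3), beside 49.6% of all exonic RBD sites. Both intervals contain the background share, so these data do not separate members from the rest of the lists in this respect. Every member gene found in both lists was found at the same place in both.

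The 5 shared places nearly coincided in position and had similar heights. SRSF11, an SR-related protein, had a height of 10 with the whole protein and of 9 with the fragment, at the identical 100 nt. SNRNP70, the U1-70K protein that marks the 5' splice site as part of the U1 snRNP, stood at 8 and 9, with starts 1 nt apart. HNRNPUL1, an hnRNP U-like protein, stood at 7 and 8, also 1 nt apart. These 3 places lie in coding sequence, in exon 8 of 12 for SRSF11, exon 10 of 10 for SNRNP70 and exon 3 of 15 for HNRNPUL1.

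HNRNPDL, a close relative of the AU-rich element binding protein HNRNPD, had a height of 7 in both lists, with starts 7 nt apart in its first exon. IGF2BP1, an oncofetal protein that protects mRNAs in the cytoplasm, stood at 11 (FL) and 9 (RBD), with starts 2 nt apart, and was the only shared member site in a 5'UTR, 191 nt upstream of the start codon in the FL list. The FL height over the RBD height ran from 0.875 to 1.22 over the 5 pairs, with a median of 1.00. Over all 209 overlapped exonic FL sites that median was 1.14, and the range was 0.400 to 2.25. Since heights were not scaled for depth, these ratios compare 2 lists as deposited.

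Shared and unshared member sites differed little in height with the whole protein. In the FL list the 5 shared sites ran from 7 to 11 with a median of 8, and the 20 unshared sites had a median of 7.5. In the RBD list the medians were 9 over the 5 shared and 6 over the 10 unshared sites, though SRSF9 and SRSF2, the tallest of that list, were unshared. Across all exonic mRNA sites, shared sites were taller in both lists, with medians of 10 against 6 (FL) and of 9 against 5 (RBD).

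Among the SR proteins, which define exons and, in the case of SRSF3, also hand mRNAs to the export machinery, SRSF2, SRSF3, SRSF9 and SRSF11 carried sites. SRSF3 had a height of 8 in the FL list, 62 nt upstream of its start codon, in a stretch whose purine share reached 93.3% in 15 nt. SRSF2 (SC35) had a height of 10 in the RBD list, in exon 2 at 455 nt past the start codon. SRSF9 had a height of 11 in the RBD list, the tallest member site there, in exon 1 at 59 nt past the start codon. SRSF2 and SRSF9 had no FL site, and SRSF3 had no RBD site. No site was listed for SRSF1, SRSF4, SRSF5, SRSF6, SRSF7, SRSF8, SRSF10 or SRSF12.

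Among the hnRNP proteins, HNRNPA0 was the only gene with more than 1 placed site in a single list. It binds AU-rich elements, and in the FL list it had a height of 12 in the 5'UTR, 198 nt before the start codon, and of 8 in the 3'UTR, 184 nt after the stop codon. Both reached a C+U share of 93.3% in 15 nt. HNRNPC, which binds uridine tracts in nascent transcripts, had a height of 7 in the RBD list at 35 nt past the start codon. The middle 25 nt of that site occur once more in the genome, within the processed pseudogene HNRNPCP6, so its reads cannot be assigned with certainty. HNRNPD, known for directing the decay of AU-rich mRNAs, had a height of 6 in the RBD list at 66 nt past the start codon. The other hnRNP genes with a site were the shared HNRNPDL and HNRNPUL1. The 22 without one were HNRNPA1, HNRNPA1L2, HNRNPA1L3, HNRNPA2B1, HNRNPA3, HNRNPAB, HNRNPCL1, HNRNPCL2, HNRNPCL3, HNRNPCL4, HNRNPF, HNRNPH1, HNRNPH2, HNRNPH3, HNRNPK, HNRNPL, HNRNPLL, HNRNPM, HNRNPR, HNRNPU, HNRNPUL2 and HNRNPUL2-BSCL2.

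Sites on the mRNAs of spliceosome subunits came mostly from the FL list, which held 6 such genes. SF3B2, a subunit of the SF3b complex of the U2 snRNP, had the tallest placed member site, at 13 in the FL list, in exon 13 of 22. PRPF6, which bridges the parts of the tri-snRNP, had a height of 10 in the FL list at 208 nt past the start codon. SNRNP200, the helicase that unwinds the U4/U6 duplex, had 9 in the FL list, far into the CDS at 4468 nt past the start codon. These 3 tallest sites of the class that were not shared all lay in coding sequence.

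PRPF19, the core of the Prp19 complex and a ubiquitin ligase, had a height of 6 in the FL list, in its CDS. PRPF4B, a kinase of spliceosomal proteins, had a height of 5 in the FL list, 79 nt upstream of the start codon, in the only member site whose 15 nt window was wholly C and U (chr6:4021333-4021362, +, middle 30 bases shown for that reason).
PRPF4B: gcgcggcagCTCTTTTCCTTCTTCctccac

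SNRNP70 was the 1 gene of the class in both lists. All 3 SF3A genes (SF3A1, SF3A2 and SF3A3), 5 of 6 SF3B genes (SF3B1, SF3B3, SF3B4, SF3B5 and SF3B6) and 5 of 7 SNRNP genes (SNRNP25, SNRNP27, SNRNP35, SNRNP40 and SNRNP48) carried no site. The PRPF genes without a site were PRPF3, PRPF4, PRPF8, PRPF18, PRPF31, PRPF38A, PRPF38B, PRPF39 and PRPF40B, so the central spliceosome proteins PRPF8 and SF3B1 were not among the listed mRNAs.

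The RBM genes with placed sites were RBM8A, RBM14, RBM23, RBM25, RBM33 and RBM39. RBM39, a U2AF-related splicing coactivator, carried 2 FL sites in its CDS, with heights of 8 and 6 at 166 nt and 799 nt past the start codon. RBM23, its close relative, also carried 2 FL sites, but with a height of 9 in the 3'UTR and of 6 in the 5'UTR, 66 nt before the start codon. The 2 relatives were thus found in the same list but in different transcript regions. RBM14, a paraspeckle protein, had a height of 7 in the FL list and a C+U share that reached 93.3%.

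RBM33 had a height of 8 in the FL list and a purine share of 93.3%. RBM25 had a height of 6 in the RBD list, with the same purine share, and was the only RBM gene there. RBM8A (Y14), a core subunit of the exon junction complex, had a height of 6 in the FL list in its 3'UTR, 3145 nt after the stop codon, and its authors' p of 0.041 was the weakest of the member sites. The 44 RBM genes without a site were RBM3, RBM4, RBM4B, RBM5, RBM6, RBM7, RBM10, RBM11, RBM12, RBM12B, RBM15, RBM15B, RBM17, RBM18, RBM19, RBM20, RBM22, RBM24, RBM26, RBM27, RBM28, RBM34, RBM38, RBM41, RBM42, RBM43, RBM44, RBM45, RBM46, RBM47, RBM48, RBMS1, RBMS2, RBMS3, RBMX2, RBMXL1, RBMXL2, RBMXL3, RBMY1A1, RBMY1B, RBMY1D, RBMY1E, RBMY1F and RBMY1J. They include genes used in few tissues, such as the RBMY copies of the testis.

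Of the 54 helicase genes 4 carried a site (7.41%), beside 4.22% of all protein-coding genes, which lies within their interval. DDX23, which frees the 5' splice site from the U1 snRNP, had a height of 6 in the FL list at 181 nt past the start codon. DDX10, a ribosome biogenesis factor, had a height of 4 in the FL list, 119 nt before the end of its CDS. DDX17, a helicase of splicing and microRNA processing, had a height of 7 in the RBD list in the 3'UTR, 623 nt after the stop codon. DDX46, which acts when the U2 snRNP joins the branch site, had a height of 4 in the RBD list in its CDS, beside the entry at C5orf24. No helicase gene was in both lists, and none reached 10.

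The 50 helicase genes without a site comprised 34 of the 38 DDX genes, namely DDX1, DDX3X, DDX3Y, DDX4, DDX5, DDX6, DDX11, DDX18, DDX19A, DDX19B, DDX20, DDX21, DDX24, DDX25, DDX27, DDX28, DDX31, DDX39A, DDX39B, DDX41, DDX42, DDX43, DDX47, DDX49, DDX50, DDX51, DDX52, DDX53, DDX54, DDX55, DDX56, DDX59, DDX60 and DDX60L. They also comprised all 16 DHX genes, namely DHX8, DHX9, DHX15, DHX16, DHX29, DHX30, DHX32, DHX33, DHX34, DHX35, DHX36, DHX37, DHX38, DHX40, DHX57 and DHX58. A gene without a listed site had no site above the authors' threshold. This says nothing of contact below it.

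Among the cytoplasmic mRNA-binding proteins, IGF2BP1 alone was shared. PABPC1, the main cytoplasmic poly(A)-binding protein, had a height of 6 in the FL list at 122 nt past its start codon. The middle 25 nt of this site also occur in the processed pseudogene PABPC1P4. PABPC4, its relative, had a height of 6 in the RBD list, further along the CDS at 1382 nt past the start codon. The 2 poly(A)-binding genes were each found in 1 list, at different places in the CDS.

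PCBP2, a poly(C)-binding protein, had a height of 6 in the FL list with its middle 11 nt before the start codon, and a further place in the genome holds the same middle 25 nt. No site was listed for IGF2BP2, IGF2BP3, PCBP1, PCBP3, PCBP4, YBX1, YBX2, YBX3 or the remaining 6 PABPC genes (PABPC1L, PABPC1L2A, PABPC1L2B, PABPC3, PABPC4L and PABPC5). The 3 IGF2BP proteins are close relatives, and IGF2BP1 was the only one whose mRNA was listed.

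Most member sites lay in coding sequence. On the longest coding transcript, 15 of 24 placed FL sites fell in the CDS (62.5%, interval 42.7 to 78.8), 6 in the 5'UTR and 3 in the 3'UTR. Of all placed exonic FL sites 62.8% were in the CDS, 13.0% in the 5'UTR and 24.2% in the 3'UTR. Of 14 placed RBD sites, 12 fell in the CDS (85.7%, interval 60.1 to 96.0), beside 64.6% of all placed exonic RBD sites. The intervals of the members contain the value over all sites in both lists.

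The start codon lay within 100 nt of the middle of 7 of the 38 placed member sites, those of SRSF3, SRSF9, HNRNPC, HNRNPD, PRPF4B, RBM23 and PCBP2 (18.4%, interval 9.22 to 33.4). Over all placed exonic sites the share was 12.4%. The 38 count each shared place in both lists. Of the 7, 4 came from the FL list and 3 from the RBD list. Member sites ran past an exon end in 13 of 38 cases (34.2%), beside 27.6% of all placed sites.

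**Figure D3:**
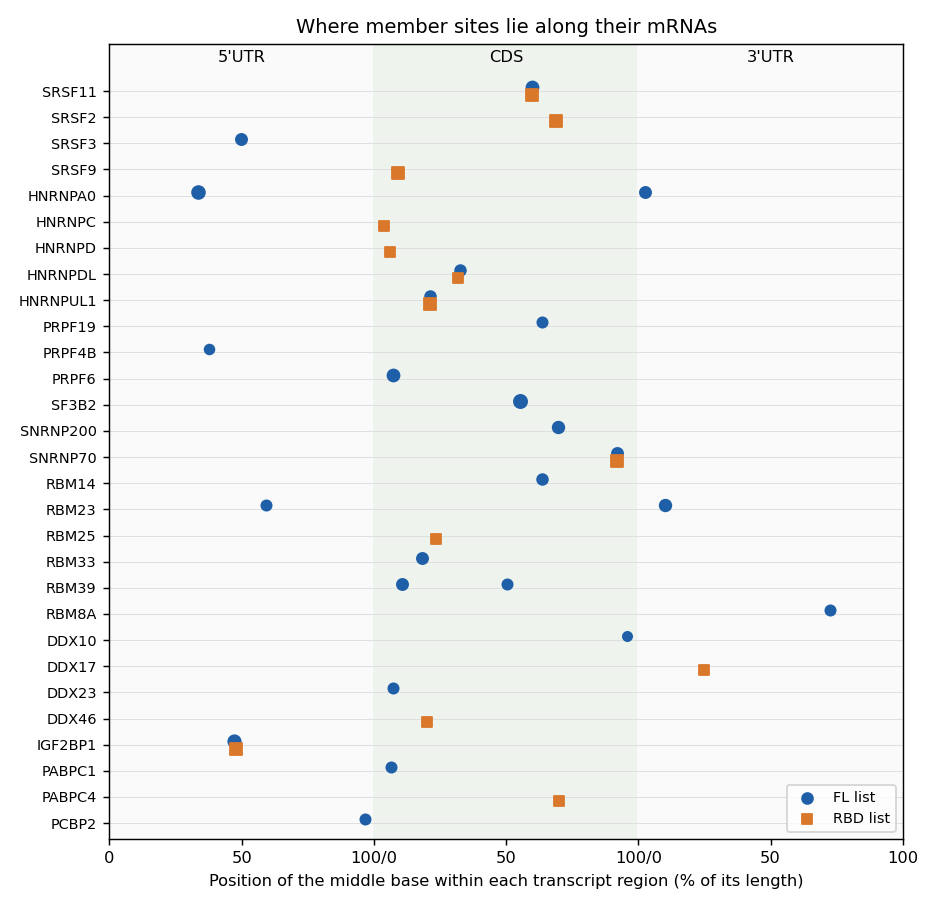
Position of the middle base of each placed member site reported by name (horizontal axis, percent of the length of the 5'UTR, CDS or 3'UTR of the longest coding transcript), with FL sites as circles and RBD sites as squares whose area grows with peak height. Of all 38 placed sites 27 lie in the CDS, 7 in the 5'UTR and 4 in the 3'UTR, and the symbols of the 5 shared genes lie on each other.

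Base composition was read in the middle 41 nt of each site, as the highest share of C+U and of G+A in any 15 nt. The median over the 40 member sites was 70.0% for C+U and 66.7% for G+A, beside 73.3% and 60% over all 1131 exonic sites. A place found in both lists counts in each of them, among the 40 as among the 1131. A C+U share of 80% or more was found in 16 member sites (40.0%, beside 45.4%) and a G+A share of 80% or more in 12 (30%, beside 23.2%). No member site had both, and 12 had neither. Pooled over the lists and at this 80% cut, members therefore split into pyrimidine-rich and purine-rich places much as all exonic sites did. The members of the RBD list alone departed further from their list, as given below. So did the pooled members in their shares with CTCT and AAGA and in their uridine counts, also given below.

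Purine-rich member sites lay mostly in coding sequence. Of the 12 purine-rich member sites 11 lay in the CDS and 1, that of SRSF3, in a 5'UTR. None lay in a 3'UTR. Over all exonic sites 224 of the 262 purine-rich sites were in the CDS. The pyrimidine-rich member sites were 8 in the CDS, 4 in the 5'UTR and 2 in the 3'UTR, with the unplaced entries of RBMX and DDX46 as the other 2. Of all 513 pyrimidine-rich exonic sites, 214 were in the CDS, 91 in the 5'UTR and 160 in the 3'UTR.

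By list, 6 of 25 FL member sites (24%) and 6 of 15 RBD member sites (40.0%) were purine-rich, beside 25.8% and 18.8% of all exonic sites. Those in the RBD list included SRSF11, RBM25, HNRNPUL1, HNRNPD and DDX46. Pyrimidine-rich were 11 FL member sites (44%) and 5 RBD member sites (33.3%), beside 42.8% and 49.6% of all exonic sites. The shared places were 2 purine-rich (SRSF11 and HNRNPUL1), 1 pyrimidine-rich (IGF2BP1) and 2 below 80% for either (HNRNPDL and SNRNP70).

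The tetramers CTCT and AAGA were looked up on the sense strand of the middle 41 nt. CTCT was in 13 of 40 member sites (32.5%), beside 46.9% of all exonic sites, and AAGA in 16 (40.0%), beside 21.9%. TCTC, which overlaps CTCT, was in 12 (30%, beside 36%), and GAAG, which overlaps AAGA, in 14 (35.0%, beside 23.2%). Shared places count in each list, IGF2BP1 for CTCT and SRSF11, HNRNPDL and HNRNPUL1 for AAGA. Of the sites printed, the middles of SF3B2, IGF2BP1, PRPF4B, DDX23 and RBMX held CTCT, and those of SRSF11, HNRNPDL, HNRNPUL1 and RBMX held AAGA. Since 4sU stands in for uridine, uridines were counted as well: member sites had a median of 7.5 in the middle 41 nt, beside 10 over all exonic sites, and the RBM39 site nearer the start codon and the HNRNPD site had 2 each.

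**Figure D4:**
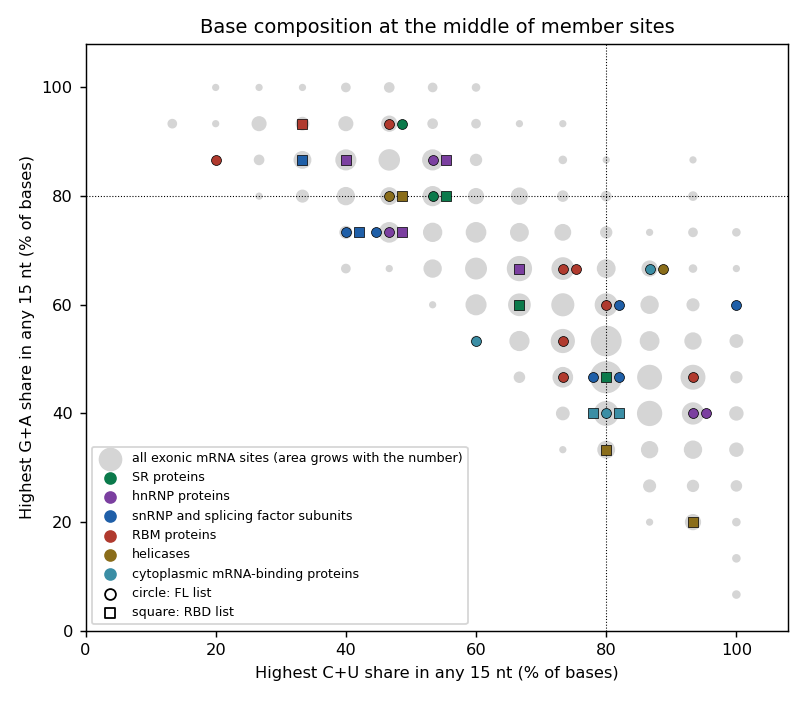
Highest C+U share (horizontal axis) against highest G+A share (vertical axis) in any 15 nt of the middle 41 nt, in percent of bases, for all 1131 exonic mRNA sites (grey, area growing with the number of sites) and the 40 member sites (coloured by class, circles FL, squares RBD, points of equal value set apart by 2 units). Dotted lines mark 80%; 16 members lie at or right of it, 12 at or above it and none in both.

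Some purine-rich and pyrimidine-rich places coincided with codons for arginine and serine, the residues of RS domains. Counted over the codons wholly within each CDS site, these residues took a median of 18.2% in the 27 member sites, beside 13.3% in all 650 CDS sites. They took 30% or more in 7 of the 27 member sites (25.9%), beside 44 of all 650 (6.77%). They took 50% or more in 6 of the 650 sites. Of those 6, 5 were member sites, at 4 genes: SRSF2 (27 of 33 codons), SRSF11 in both lists (23 of 32), DDX23 (17 of 25) and the RBM39 site nearer the start codon (19 of 33). The sixth was SRRM1, an SR-related splicing factor outside the member list, with 22 of 29 codons in the RBD list. The 50% threshold was set after the values were seen, and genes with RS domains are by their nature frequent among splicing factors, so the count is a description of these 6 sites.

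The same pair of residues was spelled in different bases at these places. The SRSF2 site reached 80% C+U, the DDX23 site 86.7% C+U, the SRSF11 site 80% G+A and the RBM39 site 86.7% G+A. The exon bases of the DDX23 site at chr12:48845552-48845651 (-) and the middle 30 bases of the RBM39 site at chr20:35732021-35732120 (-) are printed to be read beside SRSF2 and SRSF11.
DDX23: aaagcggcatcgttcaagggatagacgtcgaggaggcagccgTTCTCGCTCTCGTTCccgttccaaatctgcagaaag
RBM39: AAAGTAAGGAACGGAagcgaagtagagaca

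**Figure D5:**
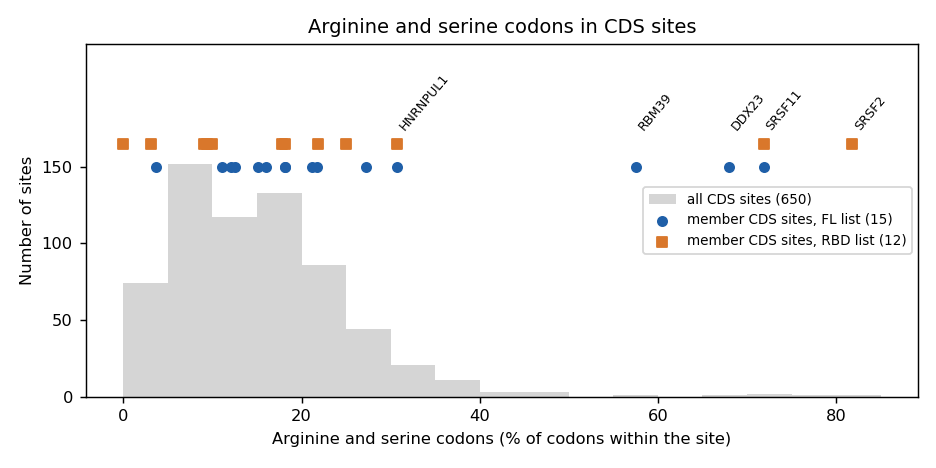
Share of arginine and serine codons among the codons wholly within each CDS site (horizontal axis, percent), as a histogram of the number of sites (vertical axis) over all 650 CDS sites in steps of 5%, with the 15 FL and 12 RBD member sites as points set above it at arbitrary heights. The points of RBM39, DDX23, SRSF11 and SRSF2 lie beyond 50%, where the histogram holds 6 sites.

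Other genes of the same machinery were taken from a list of 90 symbols outside the prefixes, among them the Sm proteins, the U2AF and CPSF subunits, PTBP, ELAVL and FUBP genes and nuclear RNA-binding proteins. The symbols were chosen with earlier results of these data known. Of these genes, 18 had an FL site, 13 an RBD site and 9 both. A site in either list was held by 22 (24.4%, interval 16.7 to 34.2), beside 4.22% of all protein-coding genes. Of their 22 FL sites 11 overlapped an RBD site, beside 29.6% of all exonic FL sites. SFPQ and NONO, the partner proteins of paraspeckles, differed in this: both SFPQ sites of the FL list (heights 23 and 14) were shared, and neither NONO site (13 and 9) was. NCL, the nucleolar protein nucleolin, had entries of 27 (FL) and 31 (RBD) at a place that matched the ribosomal RNA precursor RNA45SN1. Without this place the tallest sites of the list were SFPQ at 23 (FL) and NCL at 21 (RBD). Median heights were 8.5 and 9, and 8 and 9 without it.

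Genes for ribosomal proteins and translation factors, 173 in all and EIF4A3 of the 90 among them, carried a site in 47 cases (27.2%, interval 21.1 to 34.2). Of all protein-coding genes 4.22% did, and 24 of the 173 had a site in both lists. Of their 46 FL sites 26 were shared, beside 5 of 25 for the members, and their median heights of 13.5 (FL) and 14 (RBD) stood above the medians of 8 and 7 of the members. Without the 11 of their sites that matched a structural RNA, 21 of 41 FL sites were shared and the medians were 11 and 13, while the members without RBMX had 7.5 and 7. Abundance of the mRNAs was not measured in the files used here, and its part in this contrast was not tested.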

How the data were processed

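PAR-CLIP-seq data from 4 samples (FL and RBD, 2 biological replicates each, grouped by their labels) were used as deposited. The authors trimmed the reads with cutadapt, collapsed reads of identical sequence, aligned them to hg38 with bowtie (1.2.1.1 per the submitters' processing notes), which allowed 1 mismatch and reported alignments of the best stratum, and used the CLIP Tool Kit to find peaks, keeping those around T-to-C conversions. The paper names a later bowtie version, and which of them was used is not known here. The deposited signal is the peak height of sites 100 nt wide, pooled over replicates and unscaled. Since identical reads were collapsed, a short fragment can reach only a limited height. How many equally good alignments of a read were kept is not given in the sources used here. The authors' p of each site was read as deposited and not recomputed.

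From these lists a site was taken as 1 distinct position and strand, with starts converted to 1-based coordinates. Gene models were those of GENCODE release 44, of the same build, and 637 of 642 gene names with an exonic mRNA site in the FL list and 380 of 383 in the RBD list matched it by name or identifier. The middle base was placed on the transcript with the longest CDS. An FL and an RBD site were called shared at an overlap of 1 nt or more, strand kept. Composition was read from the genome, so a site past an exon end includes intron bases. Middle 25 nt were counted exactly in 25 chromosomes. Sites were searched with BLAST 2.17.0 against 1884 structural and mitochondrial RNA sequences (at least 20 nt at 90% identity). Named genes were all members with a site, apart from 1 that is not reported here by name or value but is kept in the counts, and positions and sequences were given for members shared or of height 10 or more. Members and gene lists were chosen with earlier results of these data known. No test was run, because replicates are pooled. Intervals are 95% Wilson or exact Poisson intervals that cover counting error alone, and sites of 1 gene are not independent. Alternatives changed the height, p, overlap, strand, region, window and uniqueness rules. Placement, window and reverse-complement functions were tested on simulated data. Work was done in Python 3.11.15 with pandas 2.3.3, numpy 2.4.6, scipy 1.17.1, pysam 0.24.0 and samtools 1.23.1.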

Additional observations from a re-analysis of the deposited data

How the results depend on the processing

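Of 84 alternative values of 12 results, 71 stayed within counting error of the value reported or, for counts of genes, within 1.5 times of it. Of the 84, 37 equalled the value reported. Some of these could not move: counting intron records added nothing, because no member entry was an intron site. The counting intervals rest on few sites and are wide, so staying within them is a weak check. With sites of height 10 or more alone, 6 member genes were left for FL and 2 for RBD, none in both and none with overlapping sites, so the overlapped share was 0% in either direction. By the same construction median heights became 11.5 (FL) and 10.5 (RBD). The 2 RBD sites left, those of SRSF9 and SRSF2, were both in the CDS (100%). Of the shared pairs, SRSF11 and IGF2BP1 reached 10 in the FL list but stood at 9 in the RBD list. With an authors' p of at most 0.001, 14 FL and 9 RBD member genes were left. The median G+A share was 80% in windows of 10 nt and 80% when windows were sought over the whole 100 nt. Leaving out sites that match a structural or mitochondrial RNA, an alternative chosen after the data were seen, removed RBMX and left 22 FL genes. Keeping sites in an exon of the named gene removed RBM14-RBM4 and also left 22. No paired analysis was possible because the deposited values are pooled over replicates, and leaving out each replicate in turn could not be run for the same reason. With heights mostly under 10 and no depth per sample, a missing site cannot be told from a site below the authors' threshold.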
